A study of Mus musculus with 21 samples.

Results

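This is a comparison of tumors injected with a STING agonist and tumors injected with saline, in mice whose own STING gene is intact. It uses 17 of the 21 libraries of the series, chosen by their labelled genotype and treatment, namely 9 of sham and 8 of agonist tumors, and all 750 probes of the panel. Lewis lung carcinoma (LLC) cells, a line derived from a mouse lung tumor, had been implanted in the right flank of male C57BL/6 mice labelled wild-type. Once established, the tumors were given PBS (sham) or STING agonist by injection into the tumor, and total RNA of the whole tumor was taken with TRIzol. The series description names the agonist as cGAMP, while the sample labels say only STING agonist. The labels give no age, dose or time from injection to harvest. The other 4 libraries came from sham tumors in C57BL/6 mice labelled knockout, with the TMEM173gt (goldenticket) genotype, and serve below only to place the panel's level and spread. The labels give the genotype of the host only, and RNA of host and implanted cells is read together in every library. Nothing in the labels states that each library is a separate mouse, and p-values measure the spread between these libraries, which may be partly technical.

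STING, encoded by Tmem173, sits in the membrane of the endoplasmic reticulum and is switched on by cGAMP, the cyclic dinucleotide that the enzyme cGAS makes when DNA appears in the cytosol. Activated STING recruits the kinase TBK1, which phosphorylates the transcription factor IRF3 and so starts transcription of type I interferon genes, and it also feeds into NF-kB. Secreted interferon acts through its receptor, JAK kinases and STAT factors on a broad set of interferon-stimulated genes. In tumors the pathway is best known in dendritic cells, where it supports the priming of cytotoxic T cells and the release of chemokines that draw T and NK cells.

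The NanoString assay counts RNA molecules with barcoded probes, and the deposited values are such counts after normalization by the authors. Within 0.1 of a step, 99.6% to 100% of a library's values were whole multiples of 1 step size. Divided by that step they summed to between 256573 and 763976 per library, totals that are estimates because a count scale was not settled in every library. Libraries of the agonist group differed among themselves before any gene was compared. Agonist replicates 4 and 5 had totals of 249154 and 295485, inside the sham range of 240633 to 299484, and the other 6 lay above it. Agonist replicates 6, 7 and 8 were written with 2 decimals where all other libraries carry more. Since no sham library was written that way, this feature cannot be told apart from the treatment in those 3 libraries, and the main results are given with and without them. In agonist replicate 8 the 5 highest probes held 34.2% of the total, led by the collagen gene Col3a1. The labels give the tissue as lung, whereas the protocol describes flank tumors. The epithelial adhesion genes Epcam and Cdh1, picked after their values were seen as Col3a1 was, were measured at 42.6 ± 17.3 and 41.6 ± 12.9 in sham libraries (SD, n = 9), and the panel holds no surfactant or keratin gene that would mark normal lung epithelium. Sham and agonist libraries were compared as unpaired. Same-numbered libraries deviated together, at a correlation over 0.1, in 3 of 8 pairs, which cannot exclude that some are paired.

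Most of the panel was higher after agonist, and by an amount that differed from tumor to tumor. The panel shift of a library is the median, over the 588 probes with a mean of at least 20, of its log2(value + 1) minus the mean of the sham libraries. In agonist replicates 1 to 8 it was 1.32, 1.01, 0.41, -0.04, 0.15, 1.18, 1.18 and 1.68, while all 9 sham libraries fell between -0.15 and 0.15. Replicate 4 lay inside the sham range, replicate 5 at its upper edge, and the other 6 above it. The mean was 0.86 ± 0.61 (SD, n = 8) against 0.01 ± 0.09 (SD, n = 9), a difference of 0.85 (exact permutation test, two-sided, p = 0.00115, and 0.00395 after adjustment over 6 library measures). Without agonist replicates 6 to 8 the difference was 0.55 (exact permutation p = 0.0130). In the 4 knockout sham libraries the shift was 0.01, -0.53, -0.28 and -0.23.

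**Figure D1:**
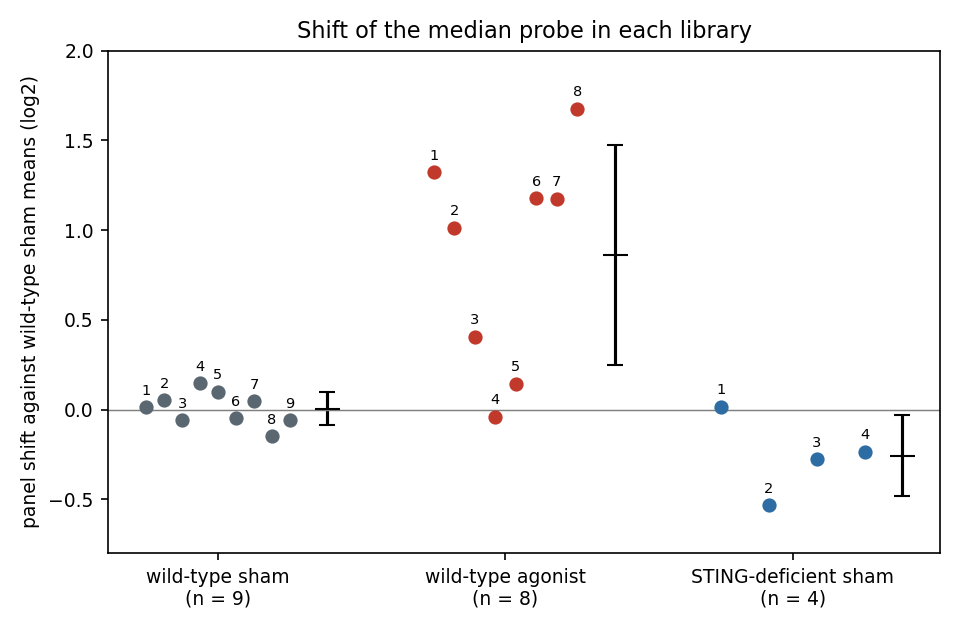
Panel shift of each library in log2 units against the wild-type sham mean, with the replicate number above each point and the group mean ± SD as a bar. The 9 sham libraries lie between -0.15 and 0.15, while the 8 agonist libraries spread from -0.04 to 1.68.

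Beside the rise common to the panel, libraries differed in how far their probes spread around it. The SD over probes, after subtraction of the sham means and a library's panel shift, was 0.87 ± 0.38 (SD, n = 8) in agonist and 0.39 ± 0.10 (SD, n = 9) in sham libraries (exact permutation p = 0.00181, adjusted p = 0.00395). In agonist replicates 4 and 5 it was 0.39 and 0.44. The 4 knockout sham libraries, given no agonist, had 0.70 ± 0.07 (SD, n = 4), so a wide spread was not particular to the agonist. Only the wild-type sham libraries enter the means subtracted, which by itself makes their spread smaller. On the authors' scale the limma fit put 486 of 750 probes higher (64.8%) and 2 lower (0.267%) at an adjusted p under 0.05, with a median log2 difference of 0.96. Relative to the panel, that is after subtracting each library's panel shift, 73 probes were higher (9.73%) and 97 lower (12.9%), with a median of 0.11. Counts for the gene lists below are to be read beside these shares of all probes on the same scale. All 73 relatively higher probes were also higher on the authors' scale. Of the 97 relatively lower ones, 2 were lower on the authors' scale too (Tnfrsf12a and Birc5), 92 were not past the threshold there, and 3 were higher there (Irak1, Stat6 and, named after its values were seen, Mapk14). As a yardstick for single genes, at least 5 of the 8 agonist libraries lay above the highest sham library in 440 probes (58.7%) on the authors' scale, and relative to the panel in 86 (11.5%), with 119 below the lowest sham library (15.9%).

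These calls depend on how libraries are put on a common scale. Higher probes were 42.9% of the calls relative to the median probe, 29.4% with TMM scaling (50 higher, 120 lower) and 66.7% when library totals were made equal (112 higher, 56 lower). The median of all 750 probes was 0.11, 0.04 and 0.25 on these scales. Under all 3 scalings 50 of the 73 and 56 of the 97 were past the threshold. Without agonist replicates 6 to 8 no probe was past it relative to the panel (limma, 158 at an unadjusted p under 0.05), and on the authors' scale 1 was, with 314 at an unadjusted p under 0.05. The medians of the same 73 and 97 probes were then 0.71 and -0.53, against 0.88 and -0.80 with all libraries. The 5 remaining agonist libraries had also entered the choice of those probes. With the replicate number as a block, which drops sham replicate 9, no probe was past the threshold relative to the panel (limma, 241 at an unadjusted p under 0.05). Leaving out a single library moved the relative counts between 25 and 113 higher and between 28 and 132 lower. The fewest remained without agonist replicate 1 (25 and 28), followed by replicate 6 (33 and 45), 7 (34 and 53) and 8 (36 and 57), and 113 were higher without replicate 4. Without sham replicate 2, 5, 6, 7 or 8 the higher count was 46, 47, 47, 39 and 44, and without sham replicate 7 or 8 the lower count was 62 and 63. 23 of the higher and 28 of the lower probes passed without each of the 17 libraries in turn.

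Relative differences also varied with abundance. With the probes cut into 4 groups of equal size by mean value, 13 were higher and 4 lower in the lowest group, 35 and 7 in the next, then 17 and 38, and 8 and 48 in the highest. The median relative difference of the 4 groups was 0.16, 0.24, 0.01 and -0.18. The spread over replicates was wider after agonist, with a median SD over probes of 0.66 against 0.37 relative to the panel, and 666 of 750 probes had the larger SD in the agonist group.

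**Figure D2:**
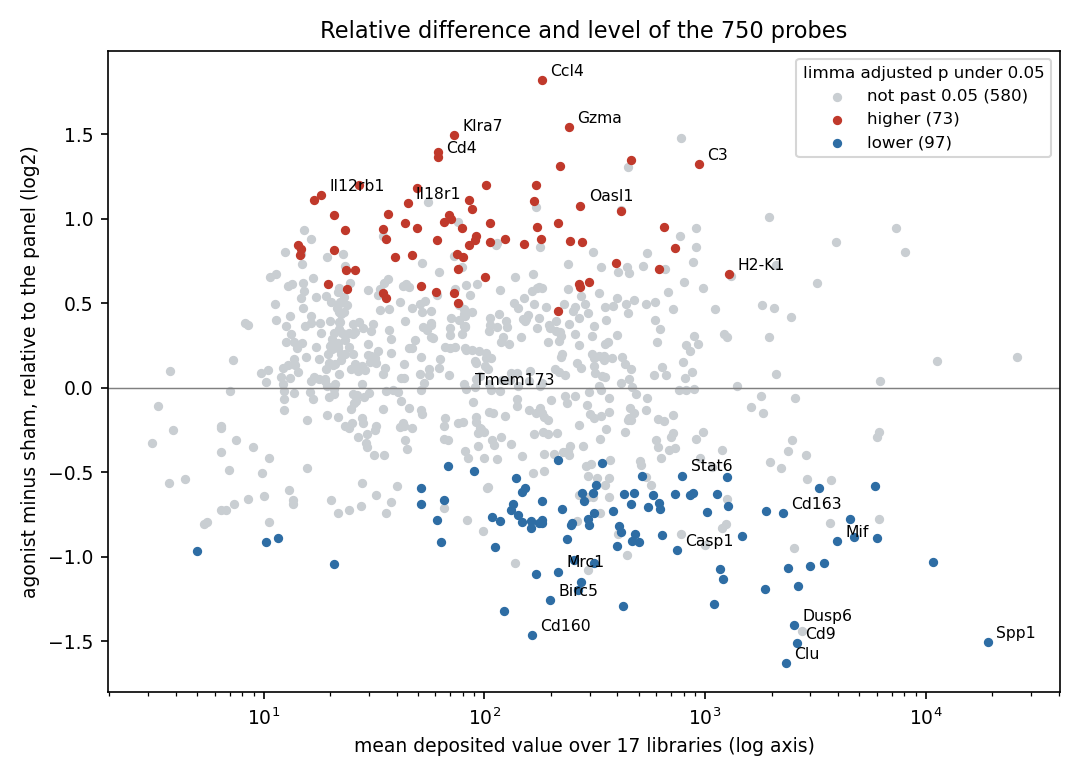
Relative difference between agonist and sham (log2, vertical axis) of each of the 750 probes against its mean deposited value over the 17 libraries (logarithmic horizontal axis). The 73 probes higher relative to the panel lie mostly at middle and low values, and the 97 lower ones mostly at high values.

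Tmem173 itself, the gene of the agonist's target, stood at the panel's own shift on average, but not library by library. Relative to the panel and the sham mean it ran from -1.39 to 0.63 in agonist and from -0.29 to 0.44 in sham libraries. On that scale 2 of 8 agonist libraries lay above the highest sham library and 2 below the lowest (SD 0.68 in agonist, 0.24 in sham). Its deposited values ran from 41.8 to 77.8 in sham libraries (median 53.7) and from 40.6 to 249.97 in agonist libraries (median 80.1), and 4 of 8 agonist libraries lay above the highest sham library. The difference was 0.85 ± 0.31 (SE, adjusted p = 0.0259) on the authors' scale and -0.01 ± 0.24 (SE, adjusted p = 0.979) relative to the panel. Without agonist replicates 6 to 8 these were 0.25 (limma, adjusted p = 0.334) and -0.31. Of 13 listed genes of cytosolic nucleic acid sensing on the panel, 11 were higher on the authors' scale. Relative to the panel 1 was higher and 2 were lower, with a list median of 0.19 beside 0.11 for all probes, which without agonist replicates 6 to 8 was 0.02 beside 0.11. The higher one was Ifih1, which encodes the RNA sensor MDA5, at 0.59 ± 0.20 (SE, adjusted p = 0.0429), past the threshold in 6 of the 17 fits that leave out a library. Irf3, the transcription factor directly downstream of STING, ran from 175 to 234 in sham libraries (median 218) and from 154 to 305 in agonist libraries (median 240.0), overlapping spans. Relative to the panel it stood at -0.72 ± 0.24 (SE, adjusted p = 0.0401). Casp1, the inflammasome protease, had values of 634, 748 and 929 in sham and 441, 721 and 904 in agonist libraries (lowest, median and highest) and a relative difference of -0.96 ± 0.27 (SE, adjusted p = 0.0223). The interferon-beta gene Ifnb1 was measured near the bottom of the panel, from 5.85 to 21.005 in sham libraries (median 9.68) and from 4.56 to 239 in agonist libraries (median 25.6), and at 0.26 ± 0.48 (SE, adjusted p = 0.726) it did not pass, nor did it on the authors' scale (adjusted p = 0.0956).

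Interferon-stimulated genes rose with the panel and stood above its median, but few of them passed the relative test. Of 29 type I interferon-stimulated genes measured, 25 were higher on the authors' scale. Relative to the panel 3 of the 29 were higher and none lower, close to the 9.73% of all probes, and the list median was 0.47, or 0.23 without agonist replicates 6 to 8. Oasl1, of the oligoadenylate synthetase family, ran from 56.2 to 153 in sham libraries (median 78.2) and from 58.1 to 1328 in agonist libraries (median 426), and its relative difference was 1.08 ± 0.33 (SE, adjusted p = 0.0301). Oas2, which makes the second messenger that activates RNase L, stood at 0.86 ± 0.27 (SE, adjusted p = 0.0324) and Ifih1 was the third. Their sham values were not uniform: the list's mean relative value ranged from -0.46 to 0.50 across sham libraries, and was 0.53, -0.12, 0.73, 0.00, -0.01, 0.09, 0.62 and 0.80 across agonist replicates 1 to 8. Only replicates 1, 3, 7 and 8 lay above the highest sham library on that score.

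Genes induced by interferon-gamma, the interferon of T and NK cells, showed the same picture. All 19 on the panel were higher on the authors' scale and 2 passed relative to the panel, at a list median of 0.49. Gbp5, a guanylate-binding GTPase that acts against intracellular pathogens, ran from 21.005 to 139 in sham libraries (median 61.1) and from 71.6 to 553 in agonist libraries (median 258). Its relative difference was 1.20 ± 0.32 (SE, adjusted p = 0.0195), past the threshold in all 17 fits without a library and under all 3 scalings. Psmb9, a subunit of the immunoproteasome, stood at 0.87 ± 0.29 (SE, adjusted p = 0.0415), and passed in 6 of 17. The interferon-gamma-induced chemokine Cxcl9 had one of the widest ranges, from 48.4 to 929.6 in sham libraries (median 163) and from 171 to 3114 in agonist libraries (median 1259), and at 1.48 ± 0.56 (SE, adjusted p = 0.0593) did not pass, and its relative Cxcl10 was at 0.75 ± 0.31 (SE, adjusted p = 0.0864). Ifng itself was at 0.45 ± 0.26 (SE, adjusted p = 0.209). The last 3 genes and Ifnb1 were picked after their values were seen.

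Interferons, their receptors and JAK-STAT genes had a median close to that of the panel. Of 20 on the panel 17 were higher on the authors' scale. Their relative median was 0.15 beside 0.11 for all probes, or 0.24 beside 0.11 without agonist replicates 6 to 8, and 13 lay above 0. None was called higher and 2 were called lower, where 9.73% and 12.9% of all probes were. The 2 lower were Jak1, the kinase shared by interferon receptors, at -0.53 ± 0.16 (SE, adjusted p = 0.0301), and Stat6, the factor of interleukin-4 signalling, at -0.52 ± 0.17 (SE, adjusted p = 0.0324). Jak1 ran from 1022 to 1179 in sham libraries (median 1119) and from 1076 to 2053 in agonist libraries (median 1365), so its deposited value was not lower after agonist. Jak2 and Pik3cg, a kinase and a leukocyte lipid kinase subunit, were 2 of 8 probes (1.07%) whose values in every agonist library lay above the highest sham library on the authors' scale. Their relative differences were 0.27 ± 0.14 and 0.05 ± 0.15 (SE), neither past the threshold. The other 6 included Amica1, Ccl17, Cd79b, Cxcr3 and Klrg1, and these 5 were higher relative to the panel as well. Jak2, Pik3cg, Amica1 and Klrg1 are named for that separation, after their values were seen, as is Ecsit below. No probe had all agonist libraries above all sham libraries relative to the panel, and 1 (0.133%) had all of them below, Ecsit, a Toll-like receptor adaptor, at -0.79 ± 0.19 (SE, adjusted p = 0.0192).

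Chemokines that draw T cells differed in how far they rose. Ccl4, a chemokine made by activated lymphocytes and macrophages, had the largest relative difference on the panel. Its values ran from 13.7 to 57.2 in sham libraries (median 41.0) and from 37.8 to 925 in agonist libraries (median 264), with 7 of 8 agonist libraries above the highest sham library. Its relative difference was 1.82 ± 0.35 (SE, adjusted p = 0.0177), past the threshold in all 17 leave-one-out fits and 1.35 without agonist replicates 6 to 8. Ccl20, the ligand of CCR6, ran from 63.0 to 169.6 in sham libraries (median 117) and from 158 to 2399.7 in agonist libraries (median 389) and stood at 1.35 ± 0.37 (SE, adjusted p = 0.0215). Ccl17, a ligand of CCR4 made by dendritic cells, ran from 25.1 to 62.4 in sham libraries (median 48.4) and from 63.9 to 422 in agonist libraries (median 148), so that the groups did not overlap in deposited values. Its relative difference was 0.86 ± 0.21 (SE, adjusted p = 0.0187). These 3 were the members higher relative to the panel among 18 chemokines of the list, with none lower and a median of 0.36, and all 3 passed under each of the 3 scalings. Of 16 chemokines that draw monocytes, neutrophils and eosinophils 5 were higher on the authors' scale and none lower. Relative to the panel none was higher and 1 was lower, where 12.9% of all probes were, with a list median of -0.16. The lower one was Ccl11 (eotaxin), at -0.85 ± 0.27 (SE, adjusted p = 0.0338). On the authors' scale Ccl11 was at 0.00 ± 0.31 (SE, adjusted p = 0.997). The monocyte attractants Ccl7 and Ccl8, both abundant, stood at -0.80 ± 0.47 and -0.40 ± 0.28 (SE) and did not pass.

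Among 19 chemokine receptors 4 were higher relative to the panel and none lower, at a median of 0.40. Cxcr3, the receptor for Cxcl9 and Cxcl10 on activated T and NK cells, had non-overlapping deposited values, from 15.7 to 22.7 in sham libraries (median 17.6) and from 26.1 to 102 in agonist libraries (median 49.3). It stood at 0.53 ± 0.17 (SE, adjusted p = 0.0324), and passed in 11 of 17 leave-one-out fits. Ccr8, found on regulatory T cells of tumors, was at 0.88 ± 0.23 (SE, adjusted p = 0.0195) and Ccr3, the eotaxin receptor of eosinophils, at 0.82 ± 0.28 (SE, adjusted p = 0.0456). Ccr3 had low values, with means of 6.55 in sham and 24.1 in agonist libraries. Cxcr6, a receptor of tissue-resident lymphocytes, stood at 1.02 ± 0.36 (SE, adjusted p = 0.0492), with 8.71 in agonist replicate 4 against 122 at the group median. Only Ccr8 passed under all 3 scalings, and Ccr3 and Cxcr6 passed in 5 and 3 of 17 leave-one-out fits.

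Receptors for lymphocyte cytokines were among the highest genes. Of 30 interleukin and cytokine receptors 22 were higher on the authors' scale, where 64.8% of all probes were. Relative to the panel 6 were higher, where 9.73% of all probes were, and none was lower, at a median of 0.35. Il2rb, the beta chain through which IL-2 and IL-15 signal, ran from 27.8 to 185 in sham libraries (median 56.2) and from 65.8 to 887 in agonist libraries (median 359). It stood at 1.31 ± 0.36 (SE, adjusted p = 0.0215). Il18r1, the receptor chain that binds IL-18, ran from 11.8 to 19.6 in sham libraries (median 16.99) and from 17.4 to 128 in agonist libraries (median 97.6), with 7 of 8 agonist libraries above all sham libraries, and stood at 1.09 ± 0.22 (SE, adjusted p = 0.0177). Il12rb1, needed for IL-12 signalling, was low in sham, from 3.24 to 8.45 in sham libraries (median 5.56) and from 5.81 to 72.1 in agonist libraries (median 29.8), and stood at 1.14 ± 0.27 (SE, adjusted p = 0.0177). Il7r, the survival receptor of naive and memory T cells, was at 1.06 ± 0.31 (SE, adjusted p = 0.0249). Il2rg, the common gamma chain, and Csf2rb, the shared chain of the GM-CSF receptor, named after their values were seen, were at 0.77 ± 0.23 and 0.63 ± 0.22 (SE). The first 3 of these passed in each of the 17 leave-one-out fits, Il7r in 15, Il2rg in 13 and Csf2rb in 4.

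With all 17 libraries, genes of cytotoxic lymphocytes had the highest median of the lists, and T cell genes the next. Without agonist replicates 6 to 8 that order was not kept, with both at 0.62. All 13 cytotoxic effector genes on the panel were higher on the authors' scale, and 7 were higher and none lower relative to the panel, with a median of 0.65 beside 0.11 for all probes. Gzma, which encodes the secreted protease granzyme A, ran from 24.6 to 147 in sham libraries (median 44.3) and from 67.8 to 1238 in agonist libraries (median 348). It stood at 1.54 ± 0.43 (SE, adjusted p = 0.0229), past the threshold in all leave-one-out fits except the one without agonist replicate 1. Gzmb, encoding granzyme B, ran from 16.1 to 76.7 in sham libraries (median 24.8) and from 23.2 to 298 in agonist libraries (median 145) and stood at 1.11 ± 0.29 (SE, adjusted p = 0.0195). The pore-forming protein gene Prf1 was at 0.94 ± 0.27 (SE, adjusted p = 0.0229) and Ctsw, a protease gene of NK and CD8 T cells, at 0.94 ± 0.27 (SE, adjusted p = 0.0236). Klrk1 (NKG2D), Eomes, a transcription factor of cytotoxic lymphocytes, and Klrd1 (CD94) were at 0.97, 0.69 and 0.61, named after their values were seen, and passed in 4, 7 and 6 of 17 leave-one-out fits. Across agonist replicates 1 to 8 the list's mean relative value was 1.15, 0.67, 0.78, 0.10, 0.52, 0.97, 0.80 and 0.87, and sham libraries spanned -0.40 to 0.55. Replicates 4 and 5 lay inside the sham range. In RNA of whole tumors, fewer cells of a type and less RNA per cell cannot be told apart, nor can more cells and more RNA per cell.

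NK cell receptors rose unevenly. Of 22 NK cell markers 15 were higher on the authors' scale, close to the 64.8% of all probes. Relative to the panel 8 were higher and 2 lower, where 9.73% and 12.9% of all probes were. Their median was 0.41, or 0.28 without agonist replicates 6 to 8. Ncr1, the gene of the natural cytotoxicity receptor NKp46, ran from 7.28 to 31.5 in sham libraries (median 14.95) and from 19.1 to 364 in agonist libraries (median 65.5) and stood at 1.39 ± 0.35 (SE, adjusted p = 0.0195). Klrc1, which encodes the inhibitory receptor NKG2A, ran from 20.3 to 83.9 in sham libraries (median 34.3) and from 34.9 to 271 in agonist libraries (median 203) and stood at 1.20 ± 0.25 (SE, adjusted p = 0.0177). Its activating relative Klrc2 was at 0.98 ± 0.28 (SE, adjusted p = 0.0236) and Klrg1, a receptor of differentiated NK and T cells, at 0.56 ± 0.19 (SE, adjusted p = 0.0426). Klra7 stood at 1.49 ± 0.33 (SE, adjusted p = 0.0177), after values from 10.0 to 31.9 in sham libraries (median 17.6) and from 11.6 to 285 in agonist libraries (median 129). Klra genes encode Ly49 receptors and are near-identical, so the identity of this probe is uncertain. The same holds for the lower Klra15 and Klra21, at -0.97 and -0.89 and named after their values were seen, with mean deposited values of 5.15 and 11.6 in agonist libraries, close to the bottom of the panel. Neither was past the threshold with totals made equal. Raet1, whose family encodes ligands of NKG2D, ran from 224 to 359 in sham libraries (median 280) and from 77.9 to 369 in agonist libraries (median 243). It stood at -1.20 ± 0.34 (SE, adjusted p = 0.0229) relative to the panel. On the authors' scale it was not past the threshold, at -0.34 ± 0.25 (SE, adjusted p = 0.218).

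Of 18 T cell markers 16 were higher on the authors' scale and 8 relative to the panel, none lower, at a median of 0.60. Cd4, the coreceptor of helper T cells that some myeloid cells also carry, ran from 9.64 to 26.9 in sham libraries (median 14.04) and from 19.1 to 344 in agonist libraries (median 90.7), with 6 of 8 agonist libraries above the highest sham library. It stood at 1.36 ± 0.30 (SE, adjusted p = 0.0177). Genes of the CD3 complex, which transmits the T cell receptor signal, moved by similar amounts, Cd3e at 0.77 ± 0.18, Cd3g at 0.79 ± 0.21 and Cd3d at 0.70 ± 0.20 (SE). Zap70, the kinase that acts right after that receptor, stood at 0.94 ± 0.25 (SE, adjusted p = 0.0195). Lck, the kinase before it, stood at 1.18 ± 0.40 (SE, adjusted p = 0.0426) but passed in 6 of 17 leave-one-out fits, with 0.53 without agonist replicates 6 to 8. Cd6, a T cell surface receptor, was past the threshold at 0.58 and like Cd3d was named after its values were seen. The summed deposited value of all 18 markers was 461 to 638 in sham and 513 to 3613 in agonist libraries, and no marker was at 0 in any library. As a share of the library total, which a factor per library does not alter, the list held 0.193% ± 0.0206 in sham (SD, n = 9) and 0.312% ± 0.0796 in agonist libraries (SD, n = 8). The same share for cytotoxic effector genes was 0.157% ± 0.0593 in sham (SD, n = 9) and 0.333% ± 0.114 in agonist libraries (SD, n = 8).

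Fewer regulatory T cell and lineage genes passed. Of 8 regulatory T cell markers 2 were higher and none lower relative to the panel, Ccr8 and Tnfrsf18 (GITR), at 0.88 ± 0.23 and 1.02 ± 0.33 (SE), with a list median of 0.38. Tnfrsf18 had low values, with means of 7.39 in sham and 35.7 in agonist libraries. Of 12 T helper lineage factors 9 were higher on the authors' scale. Relative to the panel 1 was higher, Tcf7, the factor of naive and memory-like T cells, at 0.93 ± 0.29 (SE, adjusted p = 0.0301). Tcf7 was low too, with means of 8.58 in sham and 39.8 in agonist libraries. In that list 3 were lower relative to the panel, Runx1 at -0.64 ± 0.18, Stat6 and Bcl6, at -0.50 ± 0.18 (SE), and these 3 are also active in other cell types.

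**Figure D3:**
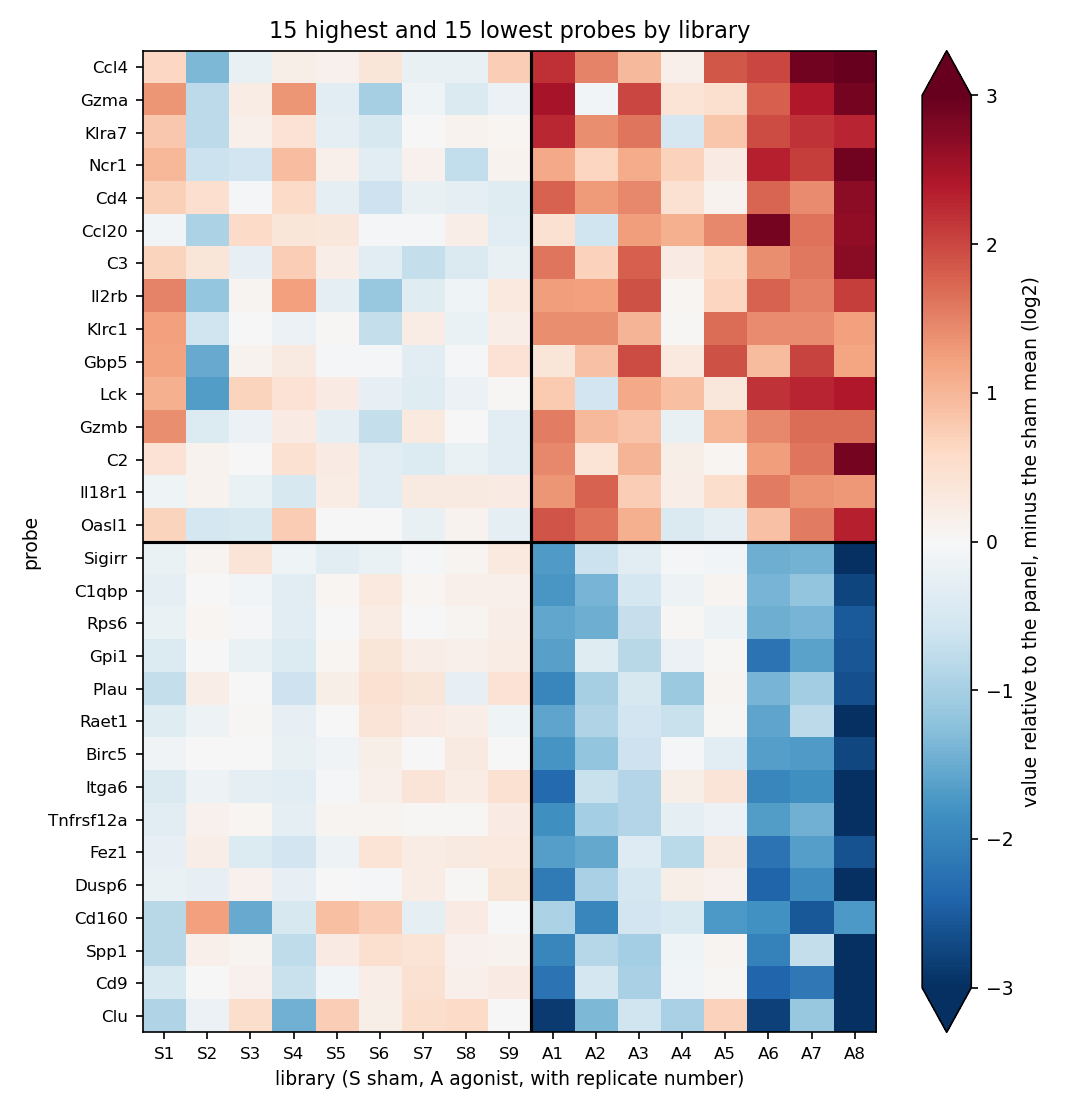
Relative value of each of the 17 libraries (columns, S for sham and A for agonist with the replicate number) for the 15 highest and the 15 lowest probes by the rule for named genes, as log2 minus the panel shift and minus the sham mean. Agonist replicates 1, 6, 7 and 8 have the strongest colors in both blocks, and agonist replicates 4 and 5 are close to sham for many of the lower genes.

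The promoters of the genes at both ends of this order are shown because interferon factors act through short DNA motifs near the start of transcription. The windows run from 250 bases before to 50 after the first start that the table lists for each gene, 300 bases each, from RefSeq on GRCm38.p6 and written in the direction of the gene. Capitals mark a match, on either strand, to the core of the interferon-stimulated response element, of the gamma-activated site (TTCNNNGAA) or of an NF-kB site. The 3 highest genes with an entry are Gzma, Klra7 and Ncr1, the 2 lowest are Cd9 and Spp1, and Ifih1, added after values were seen, is an interferon-stimulated gene of the sensing pathway.
Gzma (chr13:113100932-113101231, minus strand): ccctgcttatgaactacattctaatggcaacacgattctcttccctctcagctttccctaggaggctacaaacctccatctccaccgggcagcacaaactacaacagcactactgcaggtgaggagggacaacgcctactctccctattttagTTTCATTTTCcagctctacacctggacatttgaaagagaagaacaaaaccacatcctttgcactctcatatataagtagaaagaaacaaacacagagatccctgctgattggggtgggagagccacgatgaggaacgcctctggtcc
Klra7 (chr6:130231638-130231937, minus strand): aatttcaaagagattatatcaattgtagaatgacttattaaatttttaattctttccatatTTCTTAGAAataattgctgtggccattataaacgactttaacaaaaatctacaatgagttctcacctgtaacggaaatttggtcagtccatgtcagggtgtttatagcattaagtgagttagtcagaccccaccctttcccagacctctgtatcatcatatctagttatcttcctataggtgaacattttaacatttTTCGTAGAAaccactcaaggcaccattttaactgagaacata
Ncr1 (chr7:4337465-4337764, plus strand): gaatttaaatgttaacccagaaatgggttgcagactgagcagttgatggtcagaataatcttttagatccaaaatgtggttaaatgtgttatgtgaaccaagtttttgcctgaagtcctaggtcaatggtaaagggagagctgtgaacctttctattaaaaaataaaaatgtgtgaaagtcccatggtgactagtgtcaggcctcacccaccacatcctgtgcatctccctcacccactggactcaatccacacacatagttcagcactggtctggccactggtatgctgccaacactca
Ifih1 (chr2:62646206-62646505, minus strand): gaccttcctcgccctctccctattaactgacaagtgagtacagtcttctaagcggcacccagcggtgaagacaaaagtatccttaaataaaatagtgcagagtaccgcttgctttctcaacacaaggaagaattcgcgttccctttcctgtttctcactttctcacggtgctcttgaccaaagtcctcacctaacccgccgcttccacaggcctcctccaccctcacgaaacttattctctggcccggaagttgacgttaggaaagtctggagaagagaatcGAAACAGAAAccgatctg
Cd9 (chr6:125494711-125495010, minus strand): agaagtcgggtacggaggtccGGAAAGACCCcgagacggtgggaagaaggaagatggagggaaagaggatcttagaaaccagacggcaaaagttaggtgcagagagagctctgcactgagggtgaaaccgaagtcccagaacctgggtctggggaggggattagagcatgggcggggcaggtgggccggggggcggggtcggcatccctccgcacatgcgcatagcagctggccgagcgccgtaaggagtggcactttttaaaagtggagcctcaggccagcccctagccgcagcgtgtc
Spp1 (chr5:104434861-104435160, plus strand): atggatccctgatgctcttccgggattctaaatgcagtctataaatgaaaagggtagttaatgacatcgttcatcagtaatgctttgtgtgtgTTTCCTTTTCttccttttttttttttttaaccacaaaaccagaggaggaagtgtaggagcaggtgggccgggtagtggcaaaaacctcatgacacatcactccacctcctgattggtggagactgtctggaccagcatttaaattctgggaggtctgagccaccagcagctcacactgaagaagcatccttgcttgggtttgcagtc
A response element core stands at positions 154 to 163 of the Gzma window, 283 to 292 of Ifih1 and 94 to 103 of Spp1, counted from 1 at the first base printed. Klra7 holds gamma-activated site cores at 62 to 70 and 259 to 267, Cd9 an NF-kB core at 22 to 31, and none of the 3 motifs is in the Ncr1 window. The table lists a further start for Klra7, Ncr1 and Spp1, and the windows there hold none of the 3 motifs. A match is a description of these letters and no measured binding site.

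Across genes with a promoter in that table, 555 of the 750 probes, the response element core was present in 14% of the relatively higher genes (7 of 50), 4.29% of the lower (3 of 70) and 9.43% of the rest (41 of 435). It was in 50% of the interferon-stimulated list (11 of 22) and in 3.99% of all 27025 genes of the table. The gamma-activated site core was in 22% of the higher (11 of 50), 11.4% of the lower (8 of 70), 13.6% of the rest and 9.55% of all genes. For the NF-kB core these shares were 12%, 15.7%, 10.8% and 6.31%. No test was made of these shares. The panel itself is rich in immune genes, with the response element core in 9.19% of its promoters, the gamma-activated site core in 14.1% and the NF-kB core in 11.5%.

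Antigen presentation genes lay above the panel median in both classes. Of 19 MHC class I and peptide loading genes 16 were higher on the authors' scale, and 4 were higher and 1 lower relative to the panel, at a median of 0.33. Nlrc5, the transactivator of class I genes, ran from 46.0 to 155 in sham libraries (median 76.5) and from 85.2 to 843 in agonist libraries (median 257) and stood at 0.98 ± 0.28 (SE, adjusted p = 0.0236). H2-K1, a classical class I heavy chain, was abundant, from 389 to 971 in sham libraries (median 512) and from 568.3 to 5637 in agonist libraries (median 1578), and stood at 0.67 ± 0.23 (SE, adjusted p = 0.0429), past the threshold in 6 of 17 leave-one-out fits. Cd1d2, a lipid-presenting molecule, was at 0.82 ± 0.26 (SE), from low values with means of 8.06 in sham and 35.4 in agonist libraries. Psmb9 is given above, and the lower member was Hmgb1, a chromatin protein, at -0.64 ± 0.22 (SE), named after its values were seen. Of 12 MHC class II genes 10 were higher on the authors' scale, and 1 was higher and 1 lower relative to the panel. H2-Eb1, a class II beta chain, stood at 0.95 ± 0.33 (SE, adjusted p = 0.0469) and passed in 5 of 17. The lower one, Ctsl, a lysosomal protease of many cell types, ran from 2791 to 4216 in sham libraries (median 3788) and from 2573 to 3625 in agonist libraries (median 3383) and stood at -1.04 ± 0.24 (SE, adjusted p = 0.0177).

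Among 30 complement genes 2 were higher relative to the panel, a smaller share than the 9.73% of all probes, and 1 was lower, at a median of 0.19. C3, the protein on which all complement pathways converge, ran from 161 to 475 in sham libraries (median 213) and from 298 to 5383 in agonist libraries (median 1365), with 6 of 8 agonist libraries above the highest sham library. Its relative difference was 1.32 ± 0.30 (SE, adjusted p = 0.0177), past the threshold in all leave-one-out fits. C2, the protease of the classical pathway, ran from 36.1 to 72.3 in sham libraries (median 45.4) and from 52.3 to 1137 in agonist libraries (median 194) and stood at 1.11 ± 0.30 (SE, adjusted p = 0.0219). The lower member was C1qbp, a mostly mitochondrial protein named for binding C1q, at -1.13 ± 0.29 (SE, adjusted p = 0.0195). Of the 30 complement genes, 8 had a mean below 20.

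Co-stimulatory, co-inhibitory and TNF family genes mostly lay above 0 relative to the panel, as did 431 of all 750 probes. Calls went both ways in the co-inhibitory and TNF lists. Of 19 co-stimulatory genes 5 were higher and none lower relative to the panel, at a median of 0.17. Cd40, through which helper T cells license antigen-presenting cells, ran from 41.1 to 62.0 in sham libraries (median 47.5) and from 48.4 to 252 in agonist libraries (median 168) and stood at 0.66 ± 0.17 (SE, adjusted p = 0.0195), past the threshold in all leave-one-out fits. Cd86, a ligand of CD28, was at 0.46 ± 0.16 (SE, adjusted p = 0.0434), Slamf7 at 0.95 ± 0.30, Tnfrsf18 as above and Icos, named after its values were seen, at 0.56 ± 0.20 (SE). The 16 co-inhibitory genes had a median of 0.22, with 12 above 0. Of these 1 was higher, Tnfrsf14 (HVEM), at 0.88 ± 0.25 (SE, adjusted p = 0.0229), and 2 were lower, where 12.9% of all probes were. Cd160, a receptor for HVEM on NK and T cells, ran from 57.2 to 414 in sham libraries (median 163) and from 56.4 to 222 in agonist libraries (median 115), and its relative difference of -1.47 ± 0.36 (SE, adjusted p = 0.0186) passed in every leave-one-out fit. Cd276 (B7-H3), expressed by tumor and stromal cells, was at -0.81 ± 0.20 (SE, adjusted p = 0.0186). Of 23 TNF superfamily genes 19 lay above 0 relative to the panel, at a median of 0.30, and 3 were called higher and 4 lower. Tnfrsf1b, the TNF receptor of leukocytes, ran from 103 to 238 in sham libraries (median 129.6) and from 124 to 1897 in agonist libraries (median 574) and stood at 1.04 ± 0.31 (SE, adjusted p = 0.0245). Ltb, which with lymphotoxin alpha organizes lymphoid tissue, was at 0.79 ± 0.22 (SE, adjusted p = 0.0215) and Tnfsf15, named after its values were seen, at 0.61 ± 0.22 (SE). The lower members were Tnfrsf12a, Tnfrsf10b, Ltbr and Tnfsf12, the first 2 given below and the others at -0.63 ± 0.20 and -0.46 ± 0.16 (SE), also named after their values were seen.

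B cell genes had low values in sham tumors. Of 17 B and plasma cell markers 2 were higher and none lower relative to the panel, at a median of 0.24, and 9 of the 17 had a mean under 20. Cd79b, of the B cell receptor complex, ran from 3.21 to 6.90 in sham libraries (median 5.56) and from 8.05 to 61.2 in agonist libraries (median 24.4) and stood at 1.11 ± 0.26 (SE, adjusted p = 0.0177). Cd22, an inhibitory B cell coreceptor, ran from 3.24 to 11.1 in sham libraries (median 7.49) and from 6.04 to 144 in agonist libraries (median 44.7) and stood at 1.20 ± 0.36 (SE, adjusted p = 0.0249). Across agonist replicates 1 to 8 the list's mean relative value was 0.75, 1.05, 0.03, -0.37, -0.25, 0.95, 0.35 and 0.11, and sham libraries spanned -0.23 to 0.25. It exceeded the sham range in replicates 1, 2, 6 and 7 and fell short of it in replicates 4 and 5.

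Of 13 dendritic cell markers 2 were higher relative to the panel, Ccl17 and Irf4, a transcription factor of dendritic and B cells, at 0.70 ± 0.25 (SE, adjusted p = 0.047). Of 13 neutrophil markers 11 were higher on the authors' scale, where 64.8% of all probes were. Relative to the panel 11 lay above 0, at a median of 0.40, or 0.27 without agonist replicates 6 to 8. Of the 13, 1 was called higher and none lower. The higher one was Camp, the gene of an antimicrobial granule peptide, at 0.98 ± 0.29 (SE, adjusted p = 0.0253). The abundant alarmin S100a8 had the lowest relative difference of the list, -0.29 ± 0.40 (SE), not past the threshold. Of 23 macrophage and monocyte markers 14 were higher on the authors' scale, close to the 64.8% of all probes. Relative to the panel none was higher and 2 were lower, where 12.9% of all probes were lower. Their median was 0.01, which was -0.05 with TMM and 0.16 with equal totals. Mrc1, the mannose receptor CD206, ran from 139.9 to 316 in sham libraries (median 218) and from 158 to 222 in agonist libraries (median 207). Its agonist values lie within the sham range of levels, and relative to the panel it stood at -1.09 ± 0.25 (SE, adjusted p = 0.0177). Cd163, the hemoglobin scavenger receptor, ran from 1844 to 2936 in sham libraries (median 2079) and from 1698 to 3182 in agonist libraries (median 2151) and stood at -0.74 ± 0.20 (SE, adjusted p = 0.0195). Both passed in all leave-one-out fits and under all 3 scalings, while their deposited values did not fall past the threshold (adjusted p = 0.211 and 0.568 on the authors' scale). Of 7 mast cell markers 4 were higher on the authors' scale, where 64.8% of all probes were. Relative to the panel none was called, at a median of -0.13 that was 0.02 with equal totals.

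Genes of varied function led the lower end. Clu, encoding the secreted chaperone clusterin, ran from 1019 to 4510.0 in sham libraries (median 2728) and from 492.97 to 4472 in agonist libraries (median 1609), lower at the median in agonist libraries but overlapping. It stood at -1.63 ± 0.51 (SE, adjusted p = 0.0301) and passed in 10 of 17 leave-one-out fits. Cd9, a tetraspanin of the cell surface, ran from 2035 to 4157 in sham libraries (median 3035) and from 669.7 to 4138 in agonist libraries (median 1789.8) and stood at -1.51 ± 0.42 (SE, adjusted p = 0.0223), passing in all but the fit without agonist replicate 1. Spp1, osteopontin, had the highest value of any probe in 7 of 9 sham libraries and ran from 11566 to 27953 in sham libraries (median 21212) and from 1545 to 28005 in agonist libraries (median 15784). Its relative difference of -1.51 ± 0.54 (SE, adjusted p = 0.0496) passed in 6 of 17 fits and was -0.77 without agonist replicates 6 to 8. The value of 1545 in agonist replicate 8 stands far below the other 7. Plau, the urokinase protease, was at -1.19 ± 0.30 (SE, adjusted p = 0.0195), Itga6, the laminin receptor subunit, at -1.28 ± 0.38 (SE, adjusted p = 0.0261) and Fez1, better known from neurons, at -1.32 ± 0.31 (SE, adjusted p = 0.0177). Tnfrsf12a, the receptor for TWEAK, ran from 374 to 536 in sham libraries (median 481) and from 185 to 474 in agonist libraries (median 359). It was lower on both scales, -0.44 ± 0.18 (SE, adjusted p = 0.0372) on the authors' and -1.29 ± 0.29 (SE, adjusted p = 0.0177) relative to the panel. Gpi1, a glycolytic enzyme, was at -1.17 ± 0.32 (SE, adjusted p = 0.0215), and Sigirr, an inhibitor of interleukin-1 and Toll-like receptor signalling, at -1.10 ± 0.33 (SE, adjusted p = 0.0246).

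With all 17 libraries, the mixed list of proliferation and cell cycle genes had the lowest median of the lists. Of 8 on the panel 3 were higher and 1 was lower on the authors' scale, at a median of 0.05. None was higher and 4 were lower relative to the panel, at a median of -0.80, which was -0.87 with TMM, -0.66 with equal totals and -0.31 without agonist replicates 6 to 8, where autophagy genes, at -0.32, stood lower. Birc5 (survivin), a gene of mitotic cells that also blocks cell death, ran from 208 to 242 in sham libraries (median 221) and from 106 to 209 in agonist libraries (median 176). It was lower on the authors' scale, at -0.40 ± 0.15 (SE, adjusted p = 0.0285), and relative to the panel, at -1.26 ± 0.28 (SE, adjusted p = 0.0177). The mean relative value of the list lay below all 9 sham libraries in each of the 8 agonist libraries, at -1.001, -0.21, -0.18, -0.26, -0.15, -0.99, -0.83 and -1.73, with sham at -0.12 to 0.10. Tfrc, the transferrin receptor that supplies iron to growing cells, ran from 763 to 1759 in sham libraries (median 1291) and from 656 to 1490.0 in agonist libraries (median 1111) and stood at -1.07 ± 0.30 (SE, adjusted p = 0.0229). Mif was at -0.91 ± 0.27 (SE, adjusted p = 0.0249) and the nuclear pore gene Nup107 at -0.78 ± 0.21 (SE, adjusted p = 0.0215). The list also holds the cell cycle inhibitor gene Cdkn1a, at -0.83 ± 0.34 (SE, adjusted p = 0.0797). Its median is therefore no direct measure of cell division. Rps6, a ribosomal protein gene counted in the MAP kinase list below, ran from 260.0 to 335 in sham libraries (median 312) and from 165 to 298 in agonist libraries (median 248). It stood at -1.15 ± 0.27 (SE, adjusted p = 0.0177). As a share of the library total the proliferation list held 2.67% ± 0.299 in sham (SD, n = 9) and 1.79% ± 0.708 in agonist libraries (SD, n = 8). Mif, Tfrc and Cdkn1a, with sham means of 3880, 1249 and 1110, weigh most in that share, while Birc5 had 223. The share is therefore no direct measure of cell division either.

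Of 31 MAP kinase, calcium and stress kinase genes 14 were higher on the authors' scale, but relative to the panel 1 was higher and 14 were lower, where 12.9% of all probes were. Its median was -0.52, or -0.31 without agonist replicates 6 to 8 and -0.38 with equal totals, where 8 were lower and 2 higher. Dusp6, a phosphatase that is induced by ERK and switches it off, ran from 2451 to 3498 in sham libraries (median 2673) and from 734 to 3406 in agonist libraries (median 2169.9) and stood at -1.40 ± 0.41 (SE, adjusted p = 0.0236). Mapk3, an ERK kinase, stood at -0.69 ± 0.18, and the kinases that activate it, Map2k1 and Map2k2, at -0.63 ± 0.18 and -0.87 ± 0.26 (SE). Mapk3 ran from 434 to 740.2 in sham libraries (median 565) and from 451 to 905 in agonist libraries (median 642). Stress kinase genes were lower relative to the panel by similar amounts, Map2k4 at -0.73 ± 0.21, Mapk14 (p38 alpha) at -0.52 ± 0.18 and Mapk8 (JNK) at -0.43 ± 0.15 (SE). Mapk14 was higher on the authors' scale, as given above, with 918.5 in agonist replicate 8 against 578 in the next agonist library. The transcription factor genes Atf1 and Creb5 were at -0.94 ± 0.24 and -0.76 ± 0.20, and Egr3 at -0.92 ± 0.30 (SE). The higher member was Egr2, a factor induced by antigen receptors in T cells, at 0.78 ± 0.25 (SE, adjusted p = 0.0346). The members of this list named here other than Dusp6, Rps6, Mapk3, Atf1, Creb5 and Map3k7 were named after their values were seen.

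In the NF-kB list, 10 of 16 genes were higher on the authors' scale, close to the 64.8% of all probes. Relative to the panel none was higher and 5 were lower, where 12.9% of all probes were lower. The list median was -0.31, which was -0.16 with equal totals and -0.18 without agonist replicates 6 to 8. Map3k7, the kinase TAK1, ran from 262 to 329 in sham libraries (median 298) and from 266 to 343 in agonist libraries (median 309), largely overlapping, and stood at -0.81 ± 0.22 (SE, adjusted p = 0.0215). Chuk, the kinase IKK alpha, was at -0.71 ± 0.21 (SE, adjusted p = 0.0236), Rela, the p65 subunit, at -0.67 ± 0.21 (SE, adjusted p = 0.0302) and the adaptor Bcl10 at -0.45 ± 0.14 (SE, adjusted p = 0.0301). Nfkb1, named after its values were seen, was at -0.69 ± 0.24 (SE, adjusted p = 0.0447), with 918 in agonist replicate 2 far above the other 7 agonist libraries. Across agonist replicates 1 to 8 the mean relative value of this list was -0.61, 0.60, -0.15, -0.04, -0.03, -0.53, -0.32 and -0.50, and sham libraries spanned -0.04 to 0.07. Replicate 2 stood above the sham range, replicate 5 inside it and the other 6 below it. Among 22 Toll-like receptor genes 20 were higher on the authors' scale. Relative to the panel 1 was higher, where 9.73% of all probes were, and 2 were lower, where 12.9% were. The higher one was Irak3, an inhibitory member of the IRAK family, at 0.88 ± 0.26 (SE, adjusted p = 0.0249). The 2 lower ones were Tollip and Irak1, at -0.62 ± 0.19 and -0.54 ± 0.18 (SE). On the authors' scale Irak1 was higher, at 0.32 ± 0.14 (SE, adjusted p = 0.0478).

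Cell death and autophagy were represented by 17 apoptosis genes, with 11 higher calls and 1 lower call on the authors' scale, and by 7 autophagy genes, with 3 higher calls there. On that scale 64.8% of all probes were higher. Of the apoptosis genes none was higher and 5 were lower relative to the panel, at a median of -0.21, whereas with equal totals 1 was higher and 2 were lower. The tumor suppressor Trp53 ran from 304 to 608 in sham libraries (median 353) and from 300.1 to 668 in agonist libraries (median 361) and stood at -0.82 ± 0.25 (SE, adjusted p = 0.0281). Its target Bax was at -0.89 ± 0.28 (SE, adjusted p = 0.0302) and the death receptor Tnfrsf10b at -1.02 ± 0.29 (SE, adjusted p = 0.0236), with Birc5 and Bcl6 given above. None of Trp53, Bax and Tnfrsf10b passed on the authors' scale. Of the 7 autophagy genes 2 were lower relative to the panel, Atg16l1 at -0.67 ± 0.19 and Atg7 at -0.59 ± 0.20 (SE), and all 7 relative differences were below 0.

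Relative to the panel, markers of vessels, fibroblasts and epithelium gave few calls. On the authors' scale 4 of 10 fibroblast and pericyte, 6 of 9 epithelial and 6 of 10 angiogenic genes were higher. None of 11 endothelial markers passed relative to the panel, at a median of 0.17 that was -0.14 without agonist replicates 6 to 8, while 9 were higher on the authors' scale. Their summed value was 886 to 1297 in sham and 993 to 6908 in agonist libraries, and the highest sum was that of agonist replicate 8. Of 10 fibroblast and pericyte markers 2 were lower relative to the panel, Spp1 and Fn1 (fibronectin), the latter at -0.78 ± 0.21 (SE, adjusted p = 0.0195). The list median of 0.11 was -0.26 without agonist replicates 6 to 8. The list's mean relative value was -1.79 in agonist replicate 2 and 0.73 in replicate 8, against -0.47 to 0.36 in sham libraries. Of 9 epithelial markers 1 was lower relative to the panel, Cd9, at a list median of 0.02 that was -0.05 with TMM. Among 10 angiogenic genes Vegfc and Angpt2 were lower relative to the panel, at -0.73 ± 0.24 and -0.59 ± 0.20 (SE), the latter in 6 of 17 leave-one-out fits. Of 28 integrin and adhesion genes 1 was higher and 4 were lower relative to the panel. The 4 lower were Itga6, Itga2 at -0.77 ± 0.27, Cd47 at -0.63 ± 0.20 and Itgb1 at -0.60 ± 0.21 (SE), the last named after its values were seen. Ptprc, the leukocyte common antigen CD45 and picked likewise, ran from 234 to 465 in sham libraries (median 268) and from 322 to 3223 in agonist libraries (median 985) and stood at 0.83 ± 0.21 (SE, adjusted p = 0.0195). The part that a changed number of leukocytes has in the differences of these gene lists was not tested.

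**Figure D4:**
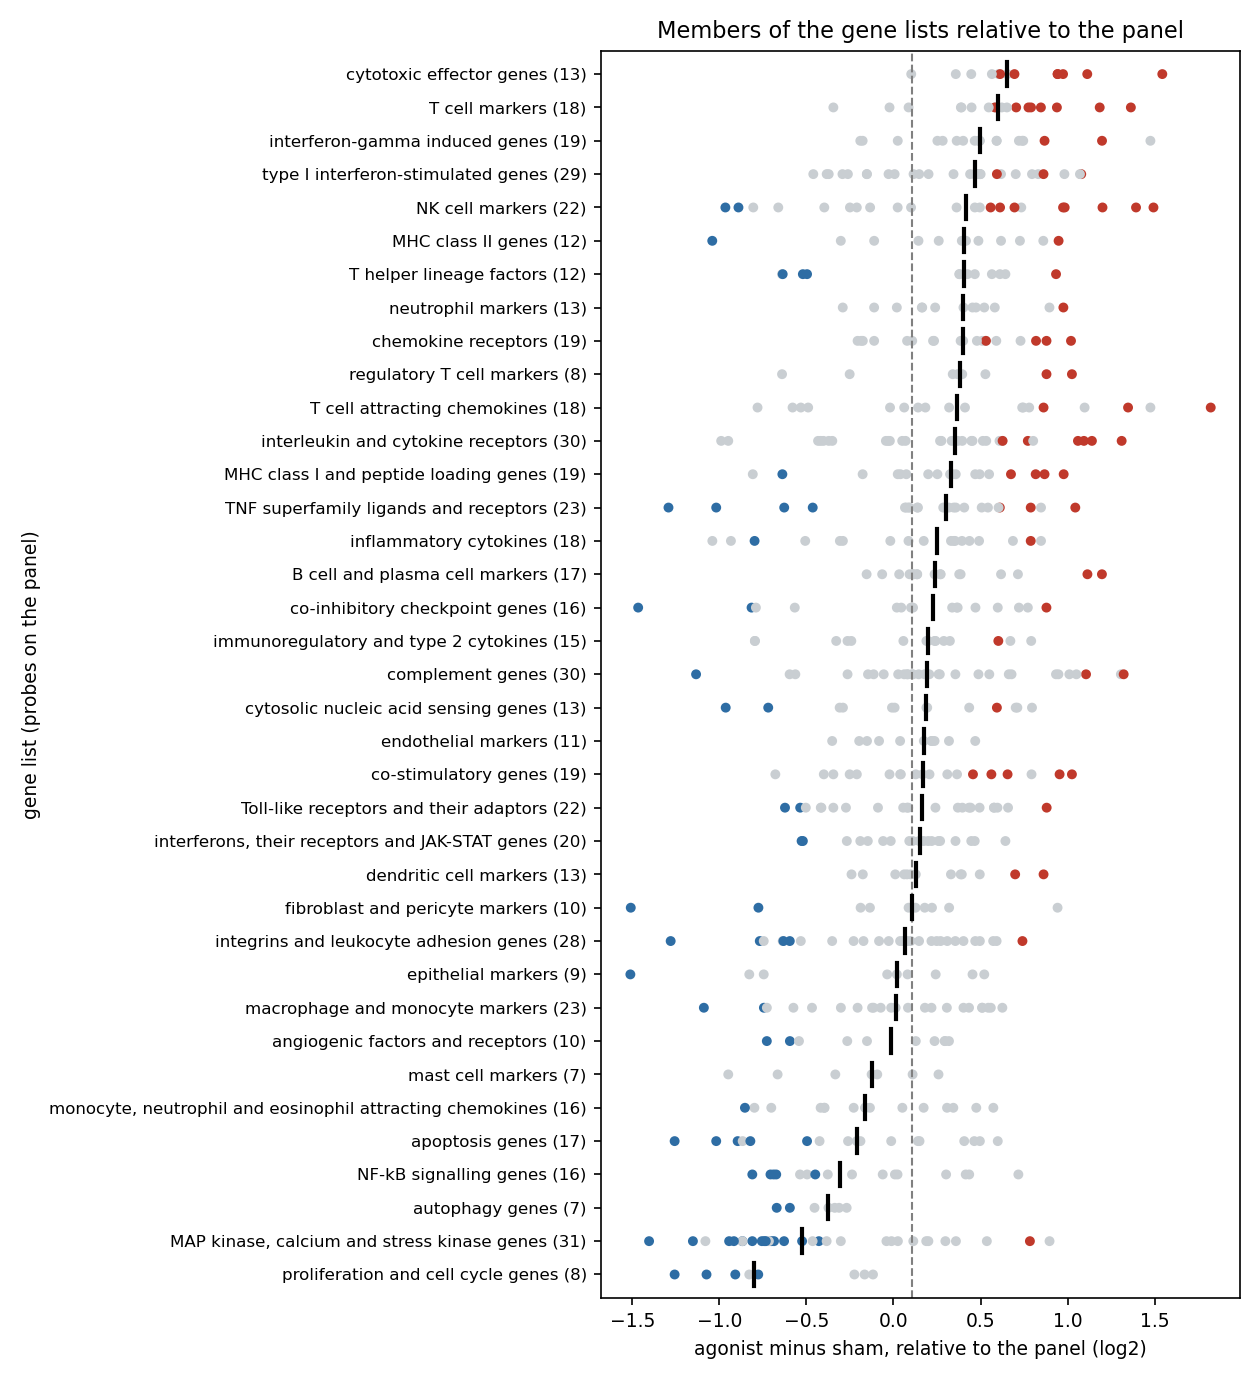
Relative difference (log2, horizontal axis) of each member of the gene lists with at least 7 probes, red where higher and blue where lower at an adjusted p under 0.05, with the number of probes in parentheses. Thick ticks are list medians and the dashed line the median of all probes, 0.11; with all 17 libraries cytotoxic and T cell genes have the highest medians, 0.65 and 0.60, and proliferation genes the lowest, -0.80, an order not kept without agonist replicates 6 to 8.

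Cytokine lists held few calls relative to the panel, where 9.73% of all probes were higher and 12.9% lower. On the authors' scale 9 of 18 inflammatory cytokines and 8 of 15 immunoregulatory and type 2 cytokines were higher, where 64.8% of all probes were. Relative to the panel, of the 18 Ltb was higher and Il34, a ligand of the CSF1 receptor, lower at -0.80 ± 0.21 (SE, adjusted p = 0.0215). Of the 15, Ebi3, a subunit of IL-27 and IL-35, was higher at 0.60 ± 0.20 (SE, adjusted p = 0.0426). Tgfb1, with the highest mean value of the second list, stood at -0.26 ± 0.14 (SE) and did not pass relative to the panel. On the authors' scale it was higher, at 0.59 ± 0.19 (SE, adjusted p = 0.0136). On the inflammatory cytokine list agonist replicate 2 stood apart, with a mean relative value of 1.86 against 0.18 in the next agonist library. Of 3 cancer-testis genes on the panel Cyfip2, a regulator of actin named here as the rule requires, was higher at 0.90 ± 0.28 (SE, adjusted p = 0.0301).

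The agonist tumors did not share these differences equally. Of the 73 higher probes 54, 40, 50, 9, 23, 60, 60 and 67 lay above the whole sham range in agonist replicates 1 to 8, and of the 97 lower probes 93, 80, 64, 13, 18, 92, 88 and 96 lay below it. Replicates 4 and 5, which had the smallest panel shifts, also had the fewest such probes. In replicate 5 the higher genes had a median relative value of 0.44 and the lower ones of -0.10, and in replicate 3, whose panel shift was 0.41, the medians were 0.85 and -0.40. These counts use the probes chosen on the same libraries and describe them only.

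**Figure D5:**
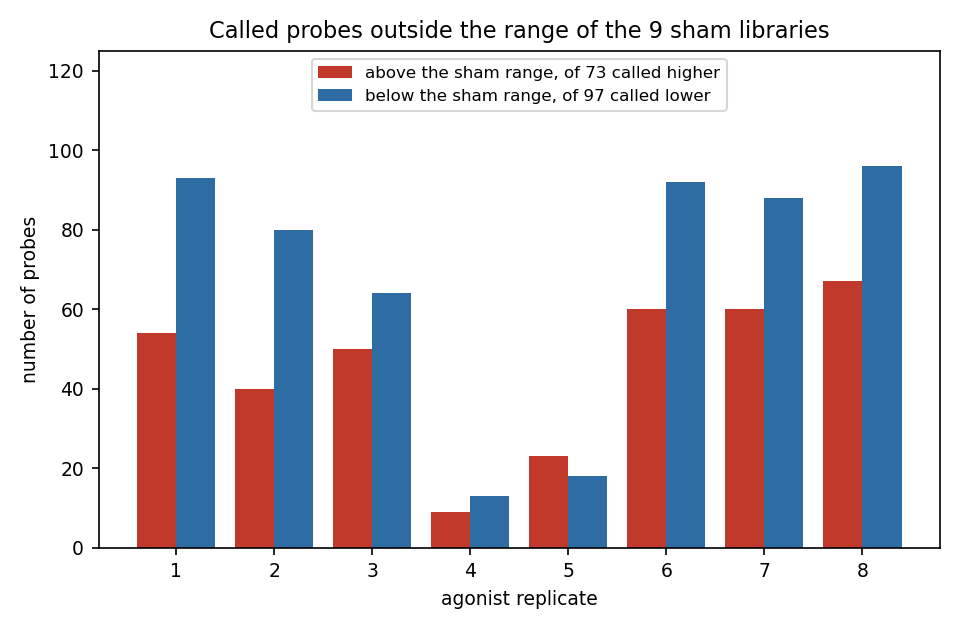
Number of the 73 relatively higher probes above the range of the 9 sham libraries (red) and of the 97 relatively lower probes below it (blue), for each agonist replicate. Replicate 4 has 9 and 13, replicate 5 has 23 and 18, and replicate 8 has 67 and 96.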

How the data were processed

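NanoString counting of 750 gene probes was used as deposited, in 1 matrix of 21 libraries. The deposited values are a signal normalized by the authors, per the file headers, and the software and reference genes behind that normalization were not found in the labels or headers. The planned tests on counts were not run, because a count scale could not be settled in every library. Hif1a was blank in 2 libraries and was fitted on the rest. The deposited values were turned into log2(value + 1) and compared over 8 agonist and 9 sham libraries with limma 3.58.1 (trend and robust) in R 4.3.3, on the authors' scale and after subtraction of each library's panel shift. P-values were adjusted by Benjamini-Hochberg over all 750 probes, with a threshold of 0.05. All adjusted p-values of genes in the text come from these limma fits. Differences between groups of single library measures were tested by exact permutation with scipy 1.17.1 in Python 3.11.15. Scripts were tested on simulated data.

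Gene lists and members were chosen with earlier results of these data known. Genes were named by rule: Tmem173, then the 15 largest and 15 smallest relative differences past the threshold with a mean of at least 50 in the higher group, then per list up to 4 members past it with the smallest p, or up to 2 with the highest values where fewer than 2 passed. Other genes are marked as named after their values were seen. Promoters come from RefSeq (GRCm38.p6), with 743 of 750 probes matched to a gene and 555 to a promoter. Replicate numbers were checked as pairs: same-numbered libraries deviated together, at a correlation over 0.1, in 3 of 8 pairs. Results of some genes are not reported here. No other filter was set.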

Additional observations from a re-analysis of the deposited data

Results flagged for a closer look

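Among 302 groups of values checked for 1 sample standing apart from the rest of its group (Dixon's test at 95%), 26 did so, where chance gives about 1 in 20. In agonist replicate 8 the total of values was 888242 (next 538952), the total in steps was 763976 (next 464160) and the 5 highest probes held 34.205% of the total (next 24.8364%). The same library had Spp1 at 1545 (next 11378), Tnfrsf12a at 185 (next 329.5), Birc5 at 106 (next 153), Sigirr at 65.1 (next 137) and Casp1 at 441 (next 648), all below the other agonist libraries. It had Cd276 at 419.7 (next 257), Mapk14 at 918.5 (next 578) and the endothelial and progenitor marker Cd34 at 3355 (next 843), all above them.

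In agonist replicate 2 the monocyte attractant Ccl7 was at 320.5 (next 2796), and Itga2 at 159 (next 112) and Nfkb1 at 918.457 (next 474) were higher than elsewhere. Agonist replicate 1 had Cd47 at 1659 (next 1279) and a step size of 1.4143 (next 1.16266), and agonist replicate 4 had Cxcr6 at 8.71 (next 59.3).

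Of the sham libraries, replicate 4 had Tnfrsf1b at 238 (next 153) and Cd163 at 2936 (next 2281) above the others, and Mrc1 at 139.9 (next 214) and Cd276 at 175.09 (next 217) below them. Sham replicate 5 had Irf3 at 175 (next 203). Sham replicate 9 had Irak1 at 109.957 (next 123) and Eomes at 5.28 (next 9.64). Sham replicate 2 had Cd47 at 1192 (next 1065) and Egr2 at 2.74 (next 4.89).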

How the results depend on the processing

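No probe past the threshold in the main comparison passed it in the opposite direction under any alternative run, but the balance of relative calls turned from more lower to more higher ones with equal totals. With TMM, equal totals or without agonist replicates 6 to 8 the medians of the macrophage, epithelial, mast cell, endothelial, fibroblast, angiogenic and adhesion lists changed sign, as did Tmem173, from -0.01 relative to the panel to 0.14 with equal totals and 0.02 with the replicate block. Without agonist replicates 6 to 8, chosen for their 2 decimals, calls were 1 higher and 0 lower on the authors' scale and 0 and 0 relative to the panel. Leaving out 1 library at a time gave 386 to 555 higher and 0 to 7 lower calls on the authors' scale, 25 to 113 higher and 28 to 132 lower ones relative to the panel, and a panel shift of 0.74 to 0.98. Over the other alternatives the panel shift kept its side of the threshold, at 0.55 to 0.98 in all. Lower calls on the authors' scale were 5 with the knockout sham libraries also fitted and 12 with array weights, which gave 136 higher and 143 lower relative to the panel. Equal totals gave 112 higher and 56 lower, and TMM 50 and 120. The replicate numbers gave no general pairing of the libraries (same-number correlations -0.23 to 0.36, best with the own number in 2 of 8). Whether some numbers pair libraries cannot be told from these correlations. With the replicate block, which drops sham replicate 9, calls were 345 higher and 0 lower on the authors' scale and 0 and 0 relative to the panel (limma, 241 at an unadjusted p under 0.05). The cause of these changes was not tested. Of the 145 genes considered for naming, relative calls lost numbered 85 without agonist replicate 1, 68 without 6, 59 without 7 and 57 without 8, 3 to 17 without 2, 3 or 5, and 8 to 52 without a sham library. A pseudocount of 10 cost 21 of them. Planned count tests were not run, as no count scale was settled. The lowest values rest on few molecules.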
